A study of Vaccinium corymbosum with 9 samples.

Results

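Genes of the proteasome were followed through fruit ripening in highbush blueberry (Vaccinium corymbosum). The set was chosen by annotation: every gene of the deposited table whose Gene Ontology entry names the proteasome complex, which gave 185 of 93716 genes. The rule itself uses no expression value, though it was set with earlier results of these data known. Of the 185 genes, 147 passed the filter for testing, which asked for 1 FPKM or more in 3 or more libraries, among 48073 genes of the whole table that did. FPKM counts fragments per length of transcript model, scaled to the library total. The remaining 38 were counted but not tested, and their highest mean level was 0.845 FPKM. The most frequent among those 38 were 7 copies of RPN9, 6 of RPN1, 6 models with only an ATPase term and 6 with only a broad regulatory-particle term. Of the 147, 130 were at 1 FPKM or more in all 9 libraries. The filter was passed by 2 members through green libraries alone and by 4 with no green library at that level, so for these 6 the filter itself favours a difference from green.

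The proteasome is the protease that degrades proteins tagged with ubiquitin. Its core particle is a barrel of alpha rings, which gate entry, around beta rings, which carry the cutting sites. A regulatory particle caps the barrel: its base holds a ring of ATPases that unfold and thread substrates, and its lid holds the enzyme that removes the ubiquitin chain. In plants the complex acts in hormone signalling, light responses and the turnover of misfolded proteins.

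Fruits of the cultivar 'Bluecrop' were taken from orchard-grown plants without treatment, with 3 libraries at each of 3 stages of natural development. The groups are early green fruit (stage 1), which the submitters name as the baseline, color-break fruit (stage 2) and mature fruit (stage 3). All share cultivar, orchard and the absence of any applied agent. The series was made to study the waxy bloom of the fruit surface, and total RNA of ground fruit was sequenced. The labels call the replicates independent and biological, and the sources used here do not say whether a library pools several fruits or which genome build was used for the coordinates given.

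The 9 libraries held 52919289 to 67604266 estimated counts each. TMM scaling factors, which edgeR sets from the bulk of genes, spanned 1.13 to 1.15 for green, 0.927 to 0.932 for color break and 0.937 to 0.945 for mature libraries. FPKM does not carry this scaling, so a gene with equal FPKM in green and later fruit has a positive log2 change under TMM. With library size alone as the scale, the median log2 change of all tested genes was -0.31 for color break against green and -0.29 for mature against green, against -0.01 for both under TMM, so changes from green are read relative to that shift. For mature against color break the median was 0.01 with library size alone and -0.01 under TMM. Seed, green tissue and lignified cells could differ in amount between the stages of whole fruit. Seed storage genes (82 of 104 tested, 69 falling and 6 rising in mature against green fruit) made up 4.62 to 5.50% of the counts at the green stage, 0.247 to 0.418% at color break and 0.248 to 0.299% at maturity, with 2, 16 and 18 of the 104 at 0 in the stages in that order. A single gene of that list that rose, VaccDscaff14-augustus-gene-315.39, made up 0.00408 to 0.00448%, 0.109 to 0.146% and 0.119 to 0.125% of the counts from green to mature. Light harvesting genes (14 of 14 tested, 9 falling and 1 rising) made up 0.0371 to 0.0405%, 0.0229 to 0.0266% and 0.0184 to 0.0188% at the stages from green to mature, and none of the 14 was at 0 at a stage. Genes of lignified cells (6 of 7 tested, 5 rising and 1 falling) made up 0.00548 to 0.00599%, 0.0211 to 0.0306% and 0.0226 to 0.0308%, with 1 gene at 0 in color break. The part of these lists in the results was not tested, and in bulk fruit fewer cells of a type and less RNA per cell cannot be told apart. Color break replicate 3 had the highest seed share of its stage, 0.418%, and stood apart on the first principal component of all genes, at 67.6 against 125 and 113 for color break replicates 1 and 2, where that component held 73.7% of the variance.

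Proteasome transcripts were more abundant in ripe fruit. The 185 genes together reached 1741, 1748 and 1740 FPKM in green, 1924, 1885 and 1750 FPKM in color break and 2166, 2185 and 2227 FPKM in mature libraries. All 3 mature libraries lay above all color break and green libraries, while the color break libraries spread widely and replicate 3 lay only just above the green ones. The summed level was 1.06 times as high in color break as in green fruit, 1.18 times as high in mature as in color break fruit and 1.26 times as high in mature as in green fruit. Divided by the TMM factors, the ratios were 1.30, 1.17 and 1.52. The set held 0.313% of all FPKM in green, 0.332% in color break and 0.3995% in mature fruit. The median tested member stood at 9.22 FPKM over the 9 libraries, against 3.50 FPKM for all tested genes, and the highest member reached 70.6 FPKM.

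Gene by gene the changes were mostly under 2-fold. A gene is said to rise or fall here when edgeR's quasi-likelihood test, with Benjamini-Hochberg adjustment over all 48073 genes, gave an adjusted p under 0.05. In color break against green fruit, 73 of 147 members rose and 7 fell, where 27.0% of all tested genes rose and 27.0% fell. The median member changed by 0.33 on the log2 scale, against -0.01 for all tested genes. Among the 101 members with a mean of at least 5 FPKM it changed by 0.11, against -0.01 for all genes under that filter. Of these 101, 29 rose, near the 27.0% of all genes that rose under the main filter, and 12 fell. The shares of all genes called under the 5 FPKM filter are not given here. At 2-fold or more, 6 members rose and 1 fell, beside 8.89% and 13.9% of all genes. The 6 include 2 PI31 genes with no green library at 1 FPKM, whose rise the filter favours. Of the 7 that fell, 2 encode PI31, 2 PA200 and 1 RPN1, and 2 have only an alpha-subunit term. These last 2 passed the filter through green libraries alone, so the filter favours their fall. With library size as the only scale, 28 members rose and 20 fell, beside 16.0% and 42.5% of all genes, and the 28 were all among the 73.

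In mature against color break fruit 20 of 147 members rose, where 2.75% of all genes rose and 3.34% fell. No member fell by edgeR, by DESeq2 or by limma on log2(FPKM + 1), and 3 were lower at an unadjusted p under 0.05 in edgeR. No member changed 2-fold by these 3 tools, also at an unadjusted p in edgeR, beside 0.763% of all genes rising and 0.612% falling that far. The median member changed by 0.21, against -0.01 for all genes. The count of 20 leaned on single libraries: it was 13 without color break replicate 2, 10 without mature replicate 2 and 7 without mature replicate 3. DESeq2 gave 35 rising members, among them the same 20.

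Across the whole interval, in mature against green fruit, 97 of 147 members rose and 6 fell, where 28.5% of all genes rose and 28.7% fell. The median member changed by 0.53, against -0.01 for all genes, and by 0.31 among those with a mean of at least 5 FPKM. At 2-fold or more, 10 members rose and 2 fell, beside 9.49% and 15.1% of all genes. The 10 include 2 PI31 genes whose rise the filter favours, and the 2 include 1 alpha-term gene whose fall it favours. Of the 6 that fell, 3 encode PI31 and the other 3 have no subunit ortholog. Among those other 3 are the 2 members that passed the filter through green libraries alone, which favours their fall. Leaving out green replicate 2, mature replicate 1 or mature replicate 3 left 3 falling members. On library size alone 62 rose and 17 fell, beside 17.9% and 42.0% of all genes, and 61 rose in all 4 of edgeR with TMM, edgeR with library size, DESeq2 and limma on log2(FPKM + 1). The F test over the 3 stages gave 98 of 147 members, 66.7%, against 59.0% of all tested genes. Among the members, 14 rose at both steps, 3 fell at the first and rose at the second, and 38 passed in none of the 3 comparisons. No share over all tested genes is given for these patterns, so the counts only describe the members.

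**Figure D1:**
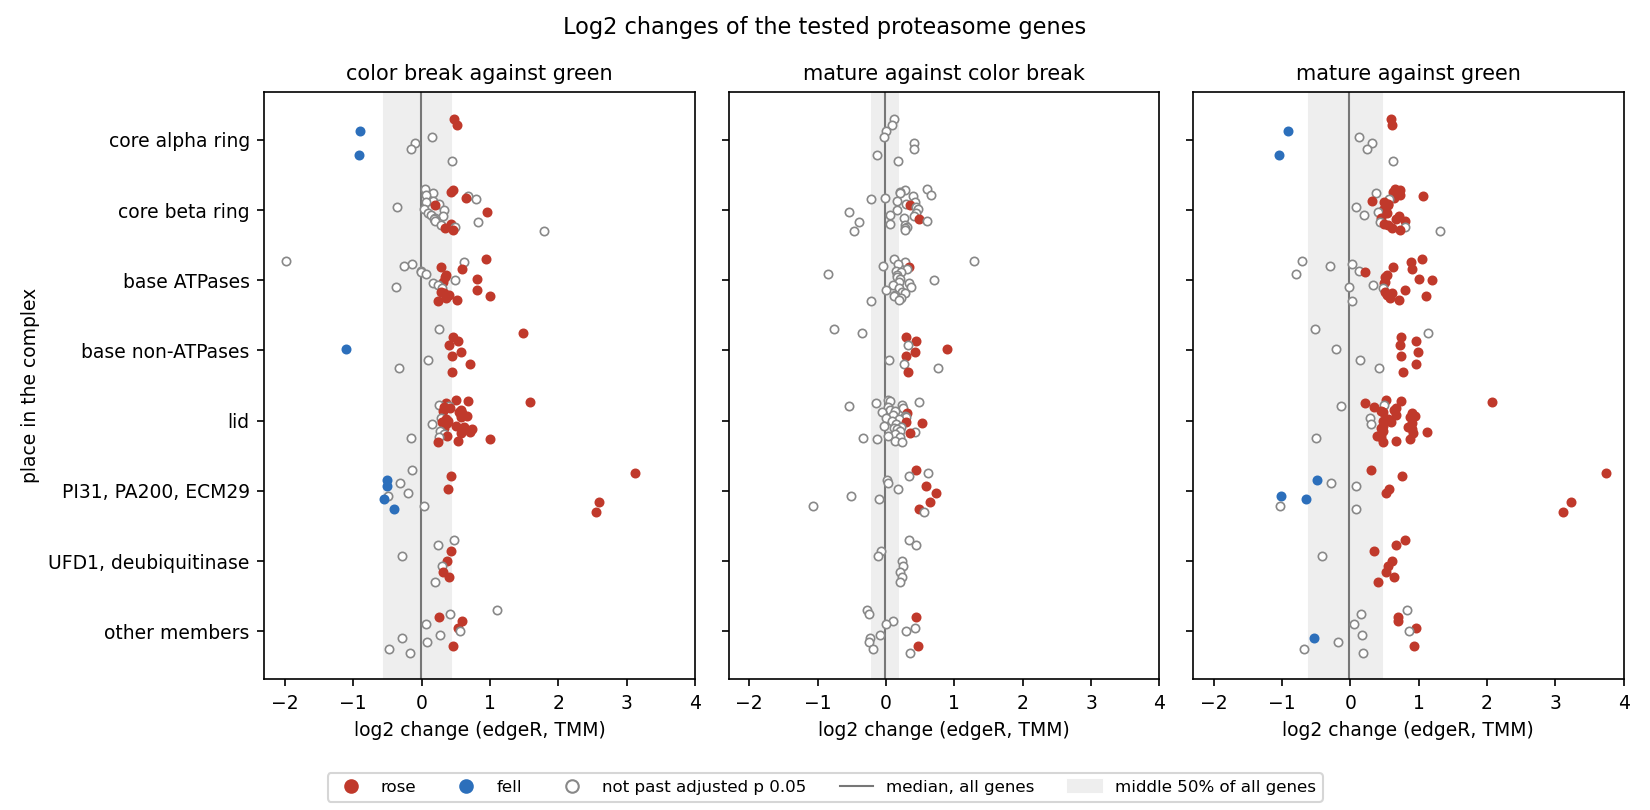
Log2 change (edgeR, TMM) of each of the 147 tested proteasome genes, grouped by place in the complex, in 3 panels: the early step (color break against green), the late step (mature against color break) and the whole interval (mature against green). Each point is a gene, the line is the median of all tested genes and the grey band holds their middle 50%. Most points sit above the line, with medians of 0.33, 0.21 and 0.53. Against green fruit 3 regulator genes stand far above the rest, and the filter itself favours the rise of 2 of them.

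The deposited table pairs genes with KEGG orthologs, and 149 of the 185 carry one. By ortholog, or by a protein description shared with such a gene in 6 cases, 135 members were placed in the core and regulatory particles and 50 outside them. The 135 cover 21 of the 33 subunits in the ortholog list, most of them in several copies. The other 12 have no gene under the term. Copies with near-identical sequence can exchange reads, so a level given for 1 copy is less certain than the sum over the copies of a subunit. Tested members had a median of 8 exons and a model length of 1590 bases, against 5 exons and 1670 bases for all tested genes.

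Summed over copies, the subunit levels were higher in mature than in color break fruit, by small amounts. In mature against color break fruit all 21 subunit sums had ratios above 1 in FPKM, 1.00 to 1.31 with a median of 1.19, and 18 of 21 had every mature library above every color break library. Divided by TMM factors, 20 of 21 ratios were above 1, the exception being RPN13 at 0.989. In color break against green fruit 15 of 21 ratios were above 1 in FPKM, with a range of 0.870 to 1.38, 10 subunits lay wholly above green and 2, RPT4 and RPT6, wholly below. Divided by the TMM factors all 21 were above 1, RPT4 at 1.07 and RPT6 at 1.11. In mature against green fruit all 21 ratios were above 1 on both scales, from 1.008 to 1.68 in FPKM.

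**Figure D2:**
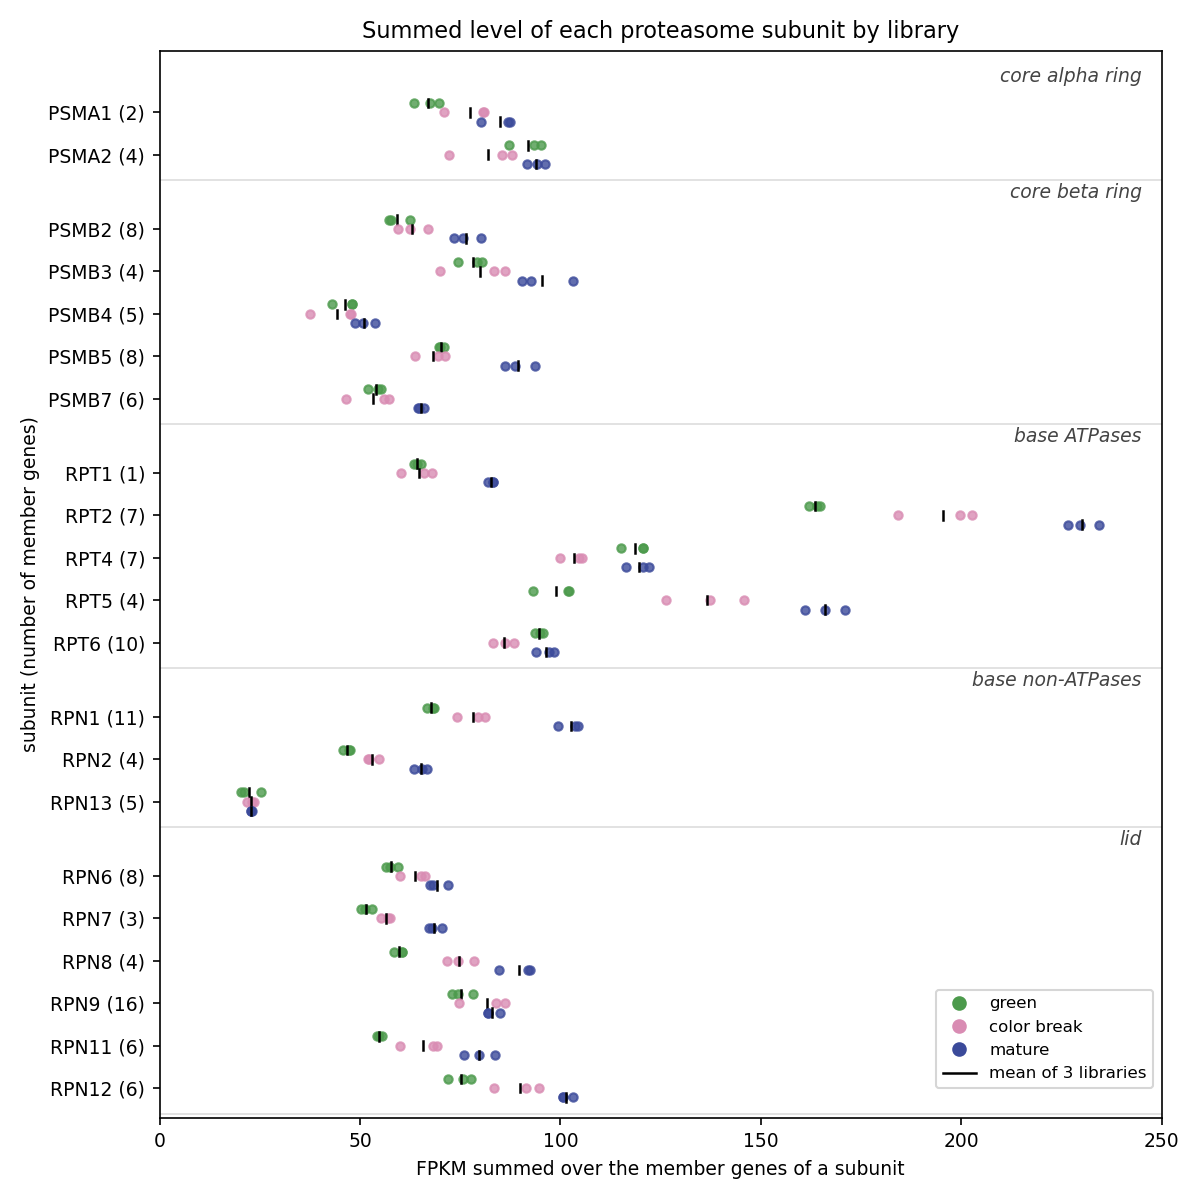
Summed FPKM of all member copies for each of the 21 subunits in the 9 libraries, with stages in the order green, color break and mature; each point is a library and each bar is the mean of 3. The mature points of RPT2 lie at 227 to 234 FPKM, above its green points at 162 to 165 FPKM, and those of RPT5 lie at 161 to 171 FPKM, above its green points at 93.2 to 102 FPKM.

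The alpha ring is the gate of the core, and by ortholog the set holds only its subunits PSMA1 and PSMA2. These alpha genes had the lowest ratio of summed level in mature against green fruit among the 5 places in the core and regulatory particles, 1.10 in FPKM and 1.34 divided by the TMM factors. The 12 members, 6 of them with only an alpha-subunit term, summed to 162, 163 and 167 FPKM in green, 169, 171 and 145 FPKM in color break and 186, 176 and 181 FPKM in mature libraries. The green and color break libraries overlapped, color break replicate 3 was the lowest of all 9, and the mature libraries lay highest. Of 8 tested members 2 rose both in color break against green and in mature against green fruit, about the share of all tested genes, 27.0% and 28.5%. Another 2 were called as falling in both. The filter itself favours their fall, so they are not set against a share. Scaled by library size alone, 1 rose in color break against green fruit and 2 in mature against green fruit, beside 16.0% and 17.9% of all genes.

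Both risers encode PSMA1, a subunit of the gate. The larger copy, VaccDscaff1176-processed-gene-0.0 (scaffold 1176, 6120 to 11384), had 49.8, 43.1 and 46.6 FPKM in green, 55.8, 55.4 and 49.0 FPKM in color break and 59.95, 55.7 and 60.8 FPKM in mature libraries. Every mature library lay above every green one, while color break replicate 3 fell within the green range. Its log2 change in mature against green fruit was 0.59 ± 0.08 (SE, edgeR adjusted p = 0.00011), and in color break against green fruit 0.47 ± 0.08 (SE, edgeR adjusted p = 0.00053), a call that library size alone did not give, at 0.18. PSMA2, another ring subunit, had 4 tested copies, with edgeR adjusted p of 0.098 to 0.87 in mature against green fruit. Its largest copy, VaccDscaff35-snap-gene-281.38, had 41.8, 40.2 and 42.3 FPKM in green, 39.8, 43.2 and 31.7 FPKM in color break and 42.5, 39.7 and 32.2 FPKM in mature libraries, and all 3 stages overlapped. The 2 genes that fell carry only an alpha-subunit term and no ortholog, and both passed the filter through the 3 green libraries alone, so the filter itself favours their fall and no test of it is given. The gene VaccDscaff26-augustus-gene-249.34 had 1.46, 2.28 and 1.495 FPKM in green, 0.765, 0.846 and 0.698 FPKM in color break and 0.666, 0.683 and 0.965 FPKM in mature libraries. The gene VaccDscaff5-augustus-gene-338.33 had 1.73, 1.66 and 1.43 FPKM in green, 0.682, 0.940 and 0.468 FPKM in color break and 0.452, 0.829 and 0.642 FPKM in mature libraries. It overlaps a gene on the other strand by 3966 bases, and since the strandedness of the libraries is not given, reads of both cannot be told apart.

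Most genes of the beta rings, which cut the substrate, rose in mature against green fruit. Their 31 members summed to 312, 305 and 307 FPKM in green, 322, 326 and 277 FPKM in color break and 368, 379 and 386 FPKM in mature libraries. The mature libraries lay above all others, green and color break libraries overlapped, and color break replicate 3 fell below every green library. In color break against green fruit 8 of 29 tested members rose, in mature against color break 2, and in mature against green 21, beside 27.0%, 2.75% and 28.5% of all tested genes, so the count at color break is at the share of all genes. Under library-size scaling 1 fell in color break against green fruit and 8 rose in mature against green fruit.

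PSMB5 carries the chymotrypsin-like site. Its largest copy, VaccDscaff23-augustus-gene-46.38 (scaffold 23, 4665768 to 4671959), had 33.3, 34.1 and 35.4 FPKM in green, 32.5, 33.5 and 31.2 FPKM in color break and 38.4, 41.3 and 46.1 FPKM in mature libraries. The mature libraries lay above all 6 others, and the log2 change in mature against green fruit was 0.55 ± 0.07 (SE, edgeR adjusted p = 0.00015). In color break against green fruit its change of 0.19 ± 0.07 (SE, edgeR adjusted p = 0.048) turned to -0.10 with library size alone. In mature against color break fruit it was 0.35 ± 0.07 (SE, edgeR adjusted p = 0.024). Fits without mature replicate 2, mature replicate 3, color break replicate 1 or color break replicate 2 gave 0.28 to 0.38 and no call. The call in color break against green fruit was lost without mature replicate 2, color break replicate 1, color break replicate 2, green replicate 1, green replicate 2 or green replicate 3, at 0.17 to 0.22. The other beta gene that rose in mature against color break fruit, VaccDscaff40-augustus-gene-266.26, also encodes PSMB5.

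PSMB7 carries the trypsin-like site. Of its 6 copies 4 rose in mature against green fruit, and 1 did with library size alone. The largest, VaccDscaff18-augustus-gene-58.31, had 17.4, 15.3 and 19.9 FPKM in green, 16.2, 18.0 and 14.7 FPKM in color break and 20.3, 16.5 and 18.3 FPKM in mature libraries and changed by 0.32 ± 0.12 (SE, edgeR adjusted p = 0.045), with mature and green libraries overlapping. Dropping mature replicate 1, mature replicate 3, color break replicate 1, green replicate 1 or green replicate 2 ended that call, at 0.23 to 0.33. It was 0.05 and not past the threshold with library size alone. Among the structural beta subunits, 7 of 8 PSMB2 copies, 4 of 4 PSMB3 copies and 2 of 5 PSMB4 copies rose. With library size alone 3, 1 and 0 copies did, in that order. The largest PSMB2 copy, VaccDscaff8-augustus-gene-344.24 (scaffold 8, 34441946 to 34447442), had 16.8, 18.6 and 19.2 FPKM in green, 20.7, 22.2 and 19.1 FPKM in color break and 25.03, 25.6 and 25.6 FPKM in mature libraries and rose by 0.73 ± 0.08 (SE, edgeR adjusted p = 3.5e-05). Its mature libraries lay above all others, while color break replicate 3 lay among the green ones. The largest PSMB3 copy, VaccDscaff2-snap-gene-198.32, had 33.6, 33.0 and 29.5 FPKM in green, 32.5, 34.3 and 28.0 FPKM in color break and 35.7, 44.2 and 37.9 FPKM in mature libraries and rose by 0.55 ± 0.11 (SE, edgeR adjusted p = 0.0015), its mature libraries lying above all others. The largest PSMB4 copy, VaccDscaff19-augustus-gene-336.39, had 14.6, 18.6 and 20.9 FPKM in green, 17.1, 15.7 and 14.1 FPKM in color break and 24.2, 22.6 and 16.9 FPKM in mature libraries, with overlapping stages, and its change of 0.49 ± 0.16 (SE, edgeR adjusted p = 0.027) was not past the threshold with library size alone, at 0.22. The adjusted p missed 0.05 on leaving out mature replicate 1, mature replicate 2, green replicate 1 or green replicate 2, with a log2 change of 0.36 to 0.51.

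The base ATPases are the unfolding motor. Their 29 members summed to 544, 546 and 532 FPKM in green, 607, 598 and 554 FPKM in color break and 687, 696 and 701 FPKM in mature libraries. Every color break library lay above every green one and every mature library above every color break one. Of 27 tested copies 15 rose in color break against green fruit, 1 in mature against color break and 18 in mature against green. Of all tested genes 27.0%, 2.75% and 28.5% rose, so the count in mature against color break fruit is near the share of all genes. With library size alone 5 rose and 5 fell in color break against green fruit, beside 16.0% and 42.5% of all genes, the rising count near its share. In mature against green fruit 14 rose and 4 fell on that scale, beside 17.9% and 42.0%.

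RPT2 and RPT5, whose tails open the gate of the core in yeast, held the ATPase copies with the largest changes in mature against green fruit. All 7 RPT2 copies and all 4 RPT5 copies rose in mature against green fruit; with library size alone 6 of 7 and 3 of 4 did. Summed over copies, RPT5 had 102, 102 and 93.2 FPKM in green, 146, 137 and 126 FPKM in color break and 161, 166 and 171 FPKM in mature libraries, with no overlap between stages. Its ratios in FPKM were 1.68 in mature against green and 1.38 in color break against green fruit. The largest copy, VaccDscaff45-snap-gene-145.43 (scaffold 45, 14491566 to 14501807), had 22.9, 29.0 and 20.9 FPKM in green, 50.2, 35.6 and 34.2 FPKM in color break and 38.5, 44.1 and 48.7 FPKM in mature libraries and rose by 1.11 ± 0.17 (SE, edgeR adjusted p = 0.00056) in mature against green fruit, with its green libraries below all others. It overlaps an untested member on the other strand by 4864 bases. The copy VaccDscaff27-snap-gene-141.23, at 23.1, 28.7 and 17.1 FPKM in green, 23.0, 23.2 and 33.9 FPKM in color break and 38.5, 44.3 and 48.8 FPKM in mature libraries, rose by 1.19 ± 0.21 (SE, edgeR adjusted p = 0.0013), with its mature libraries above all others. RPT2 was the most abundant subunit, with 162, 165 and 164 FPKM in green, 200, 203 and 184 FPKM in color break and 230, 234 and 227 FPKM in mature libraries over its copies and no overlap between stages. Its largest copy, VaccDscaff43-augustus-gene-52.29 (scaffold 43, 5214439 to 5219763), had 39.1, 40.1 and 41.6 FPKM in green, 43.7, 44.2 and 37.9 FPKM in color break and 49.2, 53.7 and 51.6 FPKM in mature libraries and rose by 0.61 ± 0.07 (SE, edgeR adjusted p = 5.9e-05). Its mature libraries lay above all others. Over the 7 copies the log2 changes ran from 0.50 to 1.05.

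Not all RPT4 and RPT6 copies rose, and no difference between subunits was tested. Of 7 RPT4 copies 2 rose in mature against green fruit, and of 8 tested RPT6 copies 4 did; with library size alone each subunit also had 2 copies that fell. Summed over copies, RPT4 had 121, 121 and 115 FPKM in green, 105, 105 and 99.8 FPKM in color break and 116, 121 and 122 FPKM in mature libraries. Its color break libraries were the lowest 3 of the 9, and mature and green libraries overlapped. The largest RPT4 copy, VaccDscaff18-augustus-gene-22.26, had 25.6, 25.2 and 24.8 FPKM in green, 21.3, 20.3 and 20.2 FPKM in color break and 23.1, 22.2 and 23.7 FPKM in mature libraries, lowest at color break and highest in green fruit. Its change in color break against green fruit was -0.02 ± 0.05 (SE, edgeR adjusted p = 0.82) under TMM and -0.31, past the threshold, with library size alone. The RPT6 copies summed to 95.7, 93.5 and 95.0 FPKM in green, 88.5, 86.1 and 83.2 FPKM in color break and 97.1, 93.8 and 98.3 FPKM in mature libraries, again lowest at color break. The largest, VaccDscaff16-augustus-gene-209.29, had 22.7, 21.3 and 27.0 FPKM in green, 19.3, 16.9 and 16.95 FPKM in color break and 19.2, 19.7 and 21.9 FPKM in mature libraries and changed by 0.03 ± 0.10 (SE, edgeR adjusted p = 0.82) in mature against green fruit, where the libraries overlapped. RPT1 is represented by 1 gene, VaccDscaff17-augustus-gene-366.21 (scaffold 17, 36602125 to 36608211), at 63.4, 65.2 and 64.3 FPKM in green, 68.1, 65.9 and 60.1 FPKM in color break and 83.2, 81.8 and 83.1 FPKM in mature libraries. Green and color break libraries overlapped and the mature ones lay above both. Its log2 change in mature against color break fruit was 0.34 ± 0.06 (SE, edgeR adjusted p = 0.0099) and in mature against green fruit 0.62 ± 0.06 (SE, edgeR adjusted p = 9.3e-06). In color break against green fruit it rose by 0.28 ± 0.06 (SE, edgeR adjusted p = 0.0018) under TMM, and the value was -0.01 with library size alone.

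**Figure D3:**
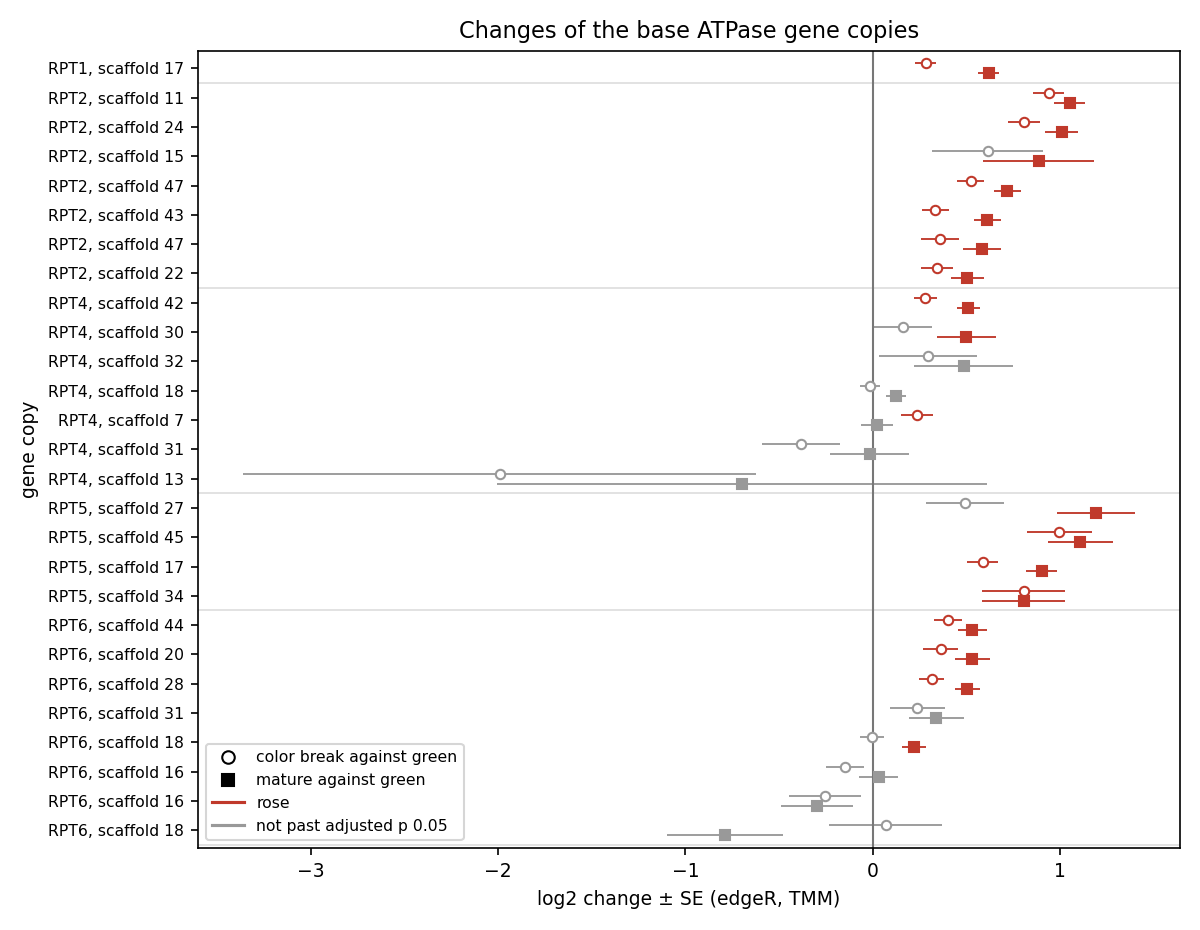
Log2 change with its standard error for the 27 tested base ATPase copies (edgeR, TMM), grouped by subunit. Open circles are color break against green, squares are mature against green. The RPT5 and RPT2 copies lie between 0.50 and 1.19 in mature against green fruit, and the RPT4 and RPT6 copies reach 0.53 at most.

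The base also holds large subunits without ATPase activity. RPN1 and RPN2 form its scaffold, and RPN1 docks the shuttle proteins that bring ubiquitinated substrates. The 20 members summed to 136, 138 and 137 FPKM in green, 159, 148 and 154 FPKM in color break and 188, 190 and 194 FPKM in mature libraries, with no overlap between stages. Of 12 tested members 8 rose and 1 fell in color break against green fruit, 6 rose in mature against color break and 7 rose in mature against green. Of all tested genes 27.0%, 2.75% and 28.5% rose in these comparisons. On library size alone the member counts were 6 rising and 1 falling, 6 rising, and 7 rising and 2 falling. The shares of all genes rising on that scale were 16.0%, 3.12% and 17.9%.

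The largest RPN1 copy, VaccDscaff39-augustus-gene-248.24 (scaffold 39, 24785625 to 24797406), had 20.3, 19.3 and 20.7 FPKM in green, 24.2, 24.4 and 26.0 FPKM in color break and 34.1, 34.6 and 32.2 FPKM in mature libraries. Its stages did not overlap, and it rose at both steps, by 0.58 ± 0.06 (SE, edgeR adjusted p = 2.2e-05) in color break against green and by 0.42 ± 0.06 (SE, edgeR adjusted p = 0.0047) in mature against color break fruit. Across the whole interval its log2 change was 1.00 ± 0.06 (SE, edgeR adjusted p = 4.8e-07). All 3 tested RPN2 copies rose at both steps. The largest, VaccDscaff36-snap-gene-237.34 (scaffold 36, 23730791 to 23741200), had 21.0, 20.6 and 20.4 FPKM in green, 24.6, 23.0 and 22.6 FPKM in color break and 28.9, 28.4 and 29.6 FPKM in mature libraries. It rose by 0.74 ± 0.05 (SE, edgeR adjusted p = 1.7e-06) in mature against green fruit. Its step from color break to mature was 0.29 ± 0.05 (SE, edgeR adjusted p = 0.014), and was not past the threshold without mature replicate 3, at 0.27.

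A minor RPN1 copy went the other way first. The gene VaccDscaff38-augustus-gene-262.20 (scaffold 38, 26224315 to 26232794) had 3.10, 2.53 and 2.46 FPKM in green, 1.28, 0.816 and 1.03 FPKM in color break and 1.84, 2.06 and 1.98 FPKM in mature libraries. Its color break libraries were the lowest, its green libraries the highest and its mature libraries between them. It fell, with a log2 change of -1.10 ± 0.17 (SE, edgeR adjusted p = 0.00041) in color break against green fruit and rose, by 0.90 ± 0.17 (SE, edgeR adjusted p = 0.017) in mature against color break fruit. The second call was lost without mature replicate 2 or mature replicate 3, at 0.85 to 0.89. RPN13, a ubiquitin receptor, had 4 tested copies, with edgeR adjusted p of 0.053 to 0.27 in mature against green fruit. The largest, VaccDscaff40-snap-gene-217.44, had 11.3, 9.76 and 11.3 FPKM in green, 9.31, 9.90 and 9.41 FPKM in color break and 10.7, 9.23 and 9.89 FPKM in mature libraries, with the stages overlapping. The copy VaccDscaff23-augustus-gene-70.26 had 1.65, 5.19 and 1.34 FPKM in green, 6.53, 4.92 and 7.62 FPKM in color break and 5.23, 4.34 and 5.61 FPKM in mature libraries. Its green replicate 2 lay with the later libraries and the other green replicates far below them. It rose by 1.49 ± 0.45 (SE, edgeR adjusted p = 0.019) in color break against green fruit. That call did not hold when green replicate 1 or green replicate 3 was left out, the value then being 1.17 to 1.23, and without green replicate 2 the value was 2.33.

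Under TMM scaling most tested lid genes had risen by color break. Its 43 members summed to 374, 371 and 377 FPKM in green, 451, 439 and 407 FPKM in color break and 481, 494 and 501 FPKM in mature libraries, with no overlap between stages. Of 35 tested members 27 rose in color break against green fruit, 4 in mature against color break and 30 in mature against green, beside 27.0%, 2.75% and 28.5% of all tested genes. Scaled by library size alone, 13 rose in color break against green fruit, beside 16.0% of all genes. On that scale 19 rose and 1 fell in mature against green, beside 17.9% and 42.0% of all genes.

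RPN11 is the metallopeptidase that cuts the ubiquitin chain from the substrate. Its largest copy, VaccDscaff43-augustus-gene-256.26 (scaffold 43, 25672832 to 25676526), had 19.4, 18.5 and 20.5 FPKM in green, 24.4, 24.8 and 22.8 FPKM in color break and 30.5, 29.8 and 32.5 FPKM in mature libraries, and its stages did not overlap. It rose by 0.57 ± 0.07 (SE, edgeR adjusted p = 8.6e-05) in color break against green and 0.92 ± 0.07 (SE, edgeR adjusted p = 3e-06) in mature against green fruit. Its change in mature against color break fruit was 0.35 ± 0.07 (SE, edgeR adjusted p = 0.022). Fits without mature replicate 1, mature replicate 2 or mature replicate 3 gave 0.31 to 0.37 and no call. Of 5 tested RPN11 copies 4 rose in mature against green fruit, and 3 did with library size alone. RPN8, the inactive partner of RPN11, rose in all 4 copies in mature against green fruit, also with library size alone. The largest, VaccDscaff20-augustus-gene-43.45 (scaffold 20, 4361792 to 4368335), had 18.6, 19.3 and 19.5 FPKM in green, 24.8, 23.4 and 23.5 FPKM in color break and 29.3, 30.4 and 30.6 FPKM in mature libraries, and its stages did not overlap. It rose by 0.91 ± 0.06 (SE, edgeR adjusted p = 7.6e-07) in mature against green fruit. Its step in mature against color break fruit was 0.31 ± 0.06 (SE, edgeR adjusted p = 0.014). Dropping mature replicate 2 or mature replicate 3 ended that call, at 0.30 to 0.31. The copy VaccDscaff28-augustus-gene-311.45, at 17.3, 16.1 and 20.5 FPKM in green, 20.4, 19.2 and 18.1 FPKM in color break and 28.7, 23.5 and 32.1 FPKM in mature libraries, had the largest lid rise in mature against color break fruit, 0.53 ± 0.13 (SE, edgeR adjusted p = 0.039). The adjusted p missed 0.05 on leaving out mature replicate 1, mature replicate 3, color break replicate 1, color break replicate 2, color break replicate 3 or green replicate 1, with a log2 change of 0.43 to 0.57.

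The remaining lid subunits are structural proteins with a PCI domain. RPN6, which clamps the lid to the core, rose in all 8 copies both in color break against green and in mature against green fruit. With library size alone 2 of 8 rose in color break against green and 4 of 8 in mature against green. The largest copy, VaccDscaff5-processed-gene-107.4, had 9.19, 9.87 and 8.69 FPKM in green, 11.6, 11.6 and 9.90 FPKM in color break and 11.6, 12.3 and 12.9 FPKM in mature libraries and rose by 0.66 ± 0.09 (SE, edgeR adjusted p = 0.00018). Its green libraries lay below all others. RPN7 rose in all 3 copies in mature against green fruit on both scales. Its largest, VaccDscaff17-augustus-gene-297.33, had 21.6, 22.6 and 23.5 FPKM in green, 26.6, 24.1 and 24.2 FPKM in color break and 30.6, 28.8 and 30.8 FPKM in mature libraries, with no overlap between stages, and rose by 0.67 ± 0.07 (SE, edgeR adjusted p = 1.7e-05). All 6 RPN12 copies rose in mature against green fruit, and 4 did with library size alone. The largest, VaccDscaff22-augustus-gene-107.25 (scaffold 22, 10727492 to 10734863), had 29.2, 28.8 and 30.3 FPKM in green, 36.4, 35.1 and 36.9 FPKM in color break and 45.3, 36.0 and 36.6 FPKM in mature libraries and rose by 0.67 ± 0.09 (SE, edgeR adjusted p = 0.00011), its green libraries lying below all others. The member outside the regulators with the largest change in mature against green fruit was also an RPN12 gene, VaccDscaff12-augustus-gene-102.10 (scaffold 12, 10217330 to 10229033). It had 0.737, 1.71 and 1.97 FPKM in green, 3.40, 4.21 and 3.39 FPKM in color break and 5.55, 3.82 and 6.24 FPKM in mature libraries and rose by 1.59 ± 0.33 (SE, edgeR adjusted p = 0.0033) in color break against green and 2.07 ± 0.34 (SE, edgeR adjusted p = 0.00069) in mature against green fruit. Its green libraries lay below all others.

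The RPN9 sum was nearly level between color break and mature fruit. RPN9 has 16 member genes, with rows of neighbouring copies on scaffolds 3 and 14, and 9 were tested. The copies summed to 78.2, 74.4 and 72.9 FPKM in green, 86.0, 83.9 and 74.8 FPKM in color break and 82.0, 85.0 and 82.0 FPKM in mature libraries. Color break and mature libraries overlapped, and the ratio in mature against color break fruit was 1.02 in FPKM. The largest copy, VaccDscaff2-snap-gene-40.28 (scaffold 2, 4042352 to 4052265), had 25.03, 24.6 and 23.0 FPKM in green, 30.0, 29.4 and 28.2 FPKM in color break and 28.8, 28.9 and 27.5 FPKM in mature libraries. It rose by 0.54 ± 0.06 (SE, edgeR adjusted p = 2.6e-05) in color break against green fruit, with its green libraries below all others, and its change in mature against color break fruit was -0.06 ± 0.06 (SE, edgeR adjusted p = 0.61). Of the 9 tested copies 5 rose in mature against green fruit, while 1 rose and 1 fell with library size alone.

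The largest changes from green fruit lay in PI31, a protein that inhibits the isolated core particle in mammals and carries proteasomes along axons in the fly. The 8 PI31 genes fall into 2 groups by protein description. In the first, all 3 tested genes were higher in mature than in green fruit, but 2 of them had no green library at 1 FPKM. The filter favours the rise of these 2, so the called rise rests on the third, the leading gene. In the second 3 of 4 fell. The first group was low in green fruit and high later. Its leading gene, VaccDscaff5-augustus-gene-141.20 (scaffold 5, 14138713 to 14143450), had 1.59, 1.38 and 1.51 FPKM in green, 8.36, 6.88 and 7.41 FPKM in color break and 10.7, 12.01 and 13.0 FPKM in mature libraries. Every color break library lay above every green one and every mature library above every color break one. It rose by 2.60 ± 0.13 (SE, edgeR adjusted p = 1.8e-07) in color break against green and by 3.23 ± 0.13 (SE, edgeR adjusted p = 4.6e-08) in mature against green fruit. In mature against color break fruit it rose by 0.64 ± 0.12 (SE, edgeR adjusted p = 0.016). That call did not hold when mature replicate 2, mature replicate 3 or color break replicate 2 was left out, the value then being 0.57 to 0.63.

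The 2 other tested genes of that group followed. The gene VaccDscaff10-augustus-gene-256.14 (scaffold 10, 25580523 to 25585338) had 0.446, 0.429 and 0.242 FPKM in green, 2.57, 1.89 and 3.75 FPKM in color break and 3.96, 5.16 and 3.65 FPKM in mature libraries. The gene VaccDscaff8-augustus-gene-274.21 (scaffold 8, 27433648 to 27434813) had 0.275, 0.399 and 0.816 FPKM in green, 1.59, 2.04 and 3.72 FPKM in color break and 3.92, 2.89 and 4.22 FPKM in mature libraries. The green libraries of both lay below all others and below 1 FPKM, so both passed the filter through later libraries alone. The filter itself thus favours their rise from green, and no test of that rise is given. In mature against color break fruit their changes were 0.62 ± 0.28 (SE, edgeR adjusted p = 0.23) for the first and 0.56 ± 0.40 (SE, edgeR adjusted p = 0.47) for the second.

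The second group of PI31 genes was highest in green fruit. Its leading gene, VaccDscaff17-snap-gene-22.32 (scaffold 17, 2279267 to 2284856), had 19.9, 20.4 and 22.0 FPKM in green, 10.6, 10.9 and 14.9 FPKM in color break and 11.8, 11.9 and 13.6 FPKM in mature libraries. Every green library lay above every later one and color break replicate 3 was the highest of the later 6. It fell, with a log2 change of -0.50 ± 0.13 (SE, edgeR adjusted p = 0.0079) in color break against green and -0.48 ± 0.13 (SE, edgeR adjusted p = 0.0088) in mature against green fruit. The gene VaccDscaff45-snap-gene-23.24 had 7.21, 9.22 and 8.45 FPKM in green, 3.62, 4.60 and 5.75 FPKM in color break and 3.28, 5.403 and 4.54 FPKM in mature libraries and fell, with a log2 change of -0.65 ± 0.21 (SE, edgeR adjusted p = 0.023) in mature against green fruit. Fits without mature replicate 1, mature replicate 3, green replicate 2 or green replicate 3 gave -0.67 to -0.48 and no call. The gene VaccDscaff34-augustus-gene-251.24 had 2.05, 2.79 and 1.82 FPKM in green, 1.31, 0.702 and 1.89 FPKM in color break and 1.23, 0.786 and 0.751 FPKM in mature libraries and fell, with a log2 change of -1.01 ± 0.35 (SE, edgeR adjusted p = 0.033). Dropping mature replicate 2, mature replicate 3, green replicate 1 or green replicate 2 ended that call, at -1.06 to -0.82. The fourth gene of the group passed in no comparison.

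In FPKM the PI31 total showed neither movement. The first group summed to 2.35, 2.304 and 2.57 FPKM in green, 12.8, 11.1 and 15.4 FPKM in color break and 18.9, 21.0 and 21.2 FPKM in mature libraries. The second summed to 39.7, 42.1 and 44.8 FPKM in green, 22.0, 22.8 and 31.3 FPKM in color break and 23.9, 24.8 and 27.1 FPKM in mature libraries. In neither group did green libraries overlap with later ones. All 8 genes together had 42.0, 44.4 and 47.3 FPKM in green, 34.7, 33.9 and 46.7 FPKM in color break and 42.8, 45.7 and 48.4 FPKM in mature libraries, and the 3 stages overlapped. Divided by the TMM factors, the mature total was 1.24 times the green one, at 45.3 to 51.3 in mature against 36.8 to 41.9 in green libraries, without overlap. Under library-size scaling the directions of both groups were the same, and the rise of the leading first-group gene in mature against green fruit was 2.96.

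**Figure D4:**
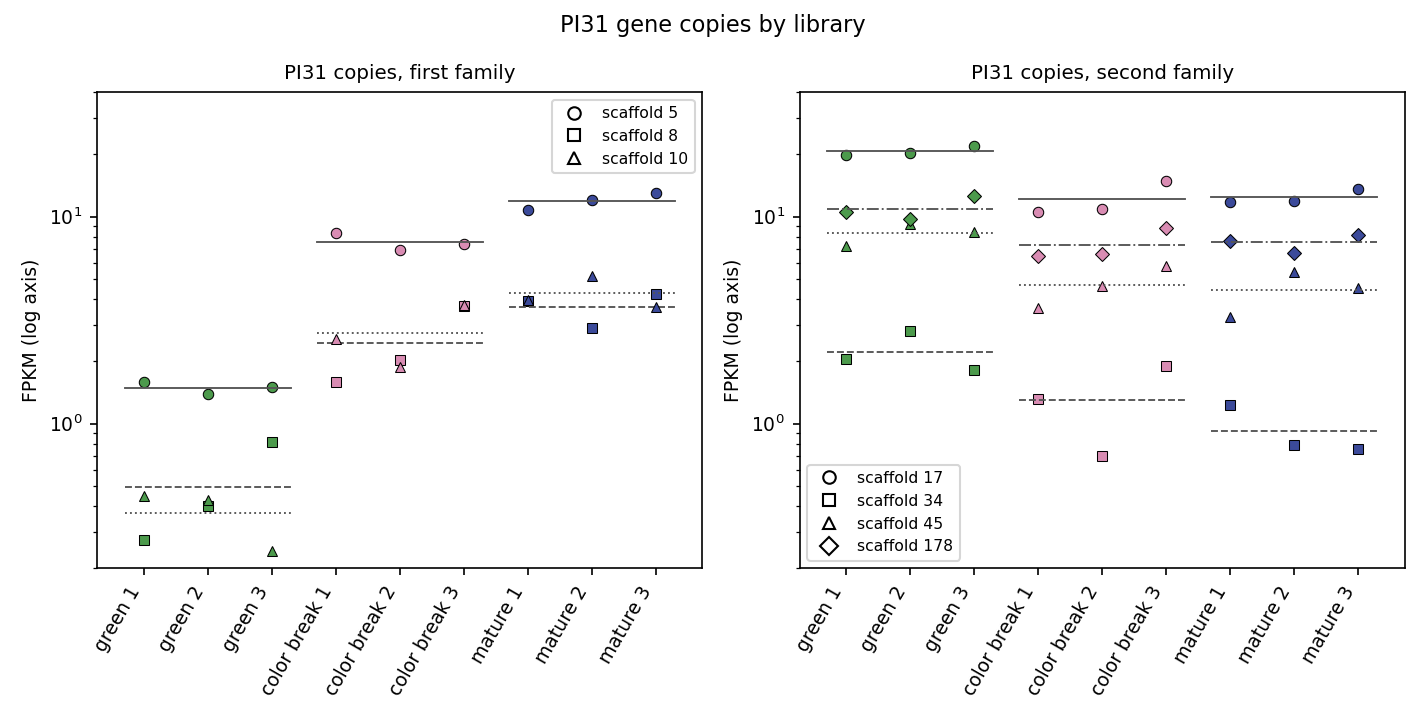
FPKM (log axis) of the 7 tested PI31 genes in each of the 9 libraries, with stages in the order green, color break and mature. Left, the 3 genes of the first group, on scaffolds 5, 8 and 10, which climb to 10.7 to 13.0 FPKM in mature fruit for the scaffold 5 gene; right, the 4 genes of the second group, on scaffolds 17, 34, 45 and 178, which are highest in green fruit or change little.

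PA200, an activator that caps the core without ATP, dipped at color break. Its 5 genes with the ortholog summed to 30.5, 38.6 and 30.5 FPKM in green, 24.4, 21.6 and 24.2 FPKM in color break and 28.8, 26.4 and 31.7 FPKM in mature libraries. All color break libraries lay below all others. Of the 5 genes 2 fell in color break against green fruit, 4 rose in mature against color break and 2 rose in mature against green. Of all tested genes 27.0% fell, 2.75% rose and 28.5% rose in these comparisons. With only 5 genes, the counts against green are not read as differing from those shares. The gene VaccDscaff207-snap-gene-1.46 (scaffold 207, 160176 to 182617) had 7.08, 6.08 and 6.11 FPKM in green, 3.69, 3.83 and 3.73 FPKM in color break and 6.07, 5.65 and 5.37 FPKM in mature libraries. Its color break libraries lay below all others, and its mature libraries just below the green ones. It fell, with a log2 change of -0.50 ± 0.08 (SE, edgeR adjusted p = 0.00041) in color break against green fruit, and rose by 0.58 ± 0.08 (SE, edgeR adjusted p = 0.004) in mature against color break fruit. The gene VaccDscaff301-snap-gene-0.47 had 4.73, 5.92 and 5.41 FPKM in green, 3.94, 3.56 and 3.998 FPKM in color break and 6.63, 5.84 and 6.92 FPKM in mature libraries and rose by 0.73 ± 0.10 (SE, edgeR adjusted p = 0.0038) in mature against color break fruit, again with color break lowest. The largest copy, VaccDscaff1-snap-gene-459.39 (scaffold 1, 45966400 to 45989146), had 7.35, 6.39 and 7.499 FPKM in green, 4.85, 5.95 and 5.14 FPKM in color break and 6.58, 7.38 and 8.03 FPKM in mature libraries and rose by 0.45 ± 0.11 (SE, edgeR adjusted p = 0.038) in mature against color break fruit. The adjusted p missed 0.05 on leaving out mature replicate 2, mature replicate 3, color break replicate 1, color break replicate 3, green replicate 1 or green replicate 3, with a log2 change of 0.38 to 0.45. Its change of 0.30 ± 0.10 (SE, edgeR adjusted p = 0.031) in mature against green fruit was 0.03 and not past the threshold with library size alone, and was lost without mature replicate 2, mature replicate 3, green replicate 1 or green replicate 2, at 0.23 to 0.33. The gene VaccDscaff62-snap-gene-8.83, which fell in color break against green and rose in mature against color break fruit, overlaps a member on the other strand by 6432 bases.

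**Figure D5:**
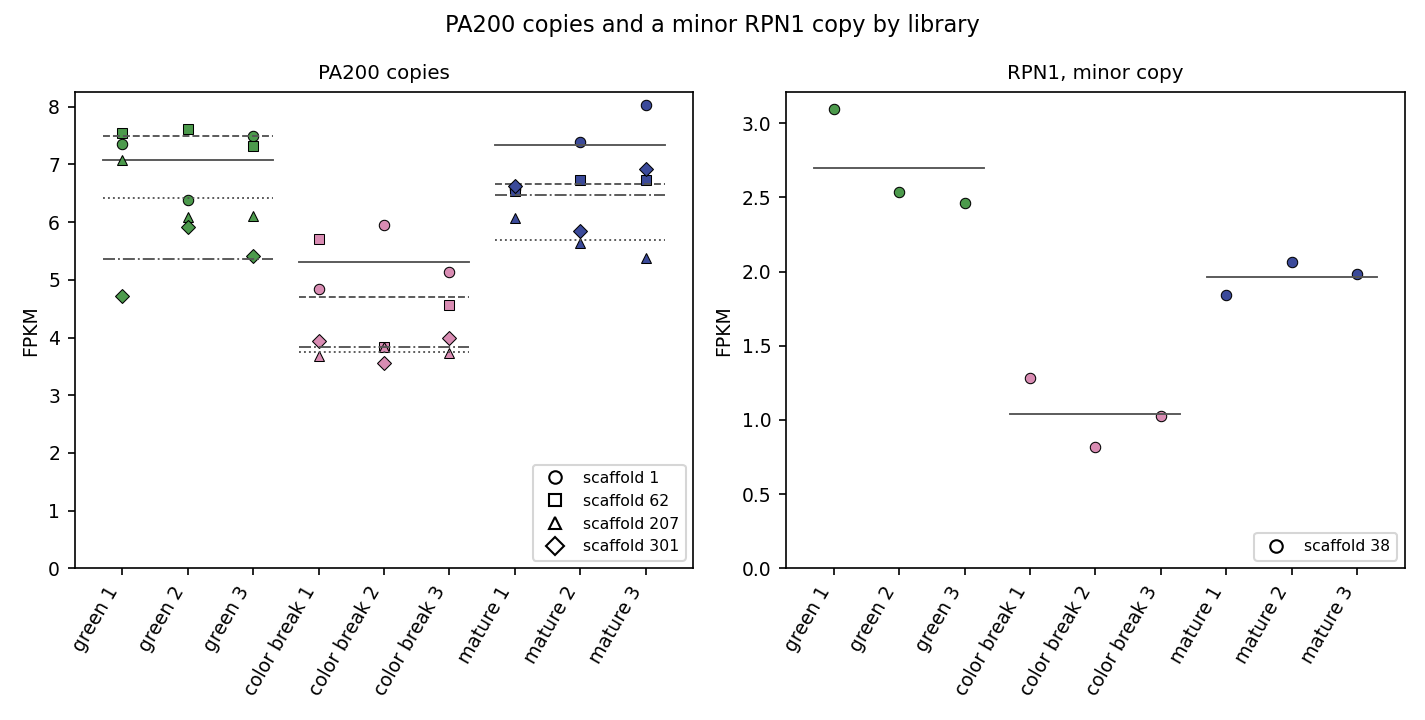
FPKM in each of the 9 libraries for PA200 genes on scaffolds 1, 62, 207 and 301 and for the minor RPN1 copy on scaffold 38, with stages in the order green, color break and mature. Another PA200 gene on scaffold 62, which did not rise after color break, is not shown. The color break points of the scaffold 207 gene, 3.69 to 3.83 FPKM, lie below its green and mature points.

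ECM29, an adaptor that binds the assembled proteasome in yeast, rose in both copies in color break against green and in mature against green fruit. The larger copy, VaccDscaff24-snap-gene-362.30, had 7.97, 8.38 and 8.10 FPKM in green, 9.60, 8.41 and 8.52 FPKM in color break and 9.58, 11.4 and 9.43 FPKM in mature libraries and rose by 0.57 ± 0.09 (SE, edgeR adjusted p = 0.00036); in color break against green fruit it rose by 0.39 ± 0.09 (SE, edgeR adjusted p = 0.0039), a call that library size alone did not give, at 0.10. Its mature libraries lay above its green ones.

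The term also holds genes outside the 2 particles. UFD1, a cofactor of the CDC48 segregase that pulls ubiquitinated proteins from complexes, had 5 genes. All 5 rose in mature against green fruit, though the filter favours the rise of 1, which had no green library at 1 FPKM. Its largest gene, VaccDscaff8-augustus-gene-83.27 (scaffold 8, 8335126 to 8339814), had 10.8, 10.2 and 10.5 FPKM in green, 12.4, 11.4 and 10.7 FPKM in color break and 12.6, 14.2 and 14.5 FPKM in mature libraries and rose by 0.64 ± 0.08 (SE, edgeR adjusted p = 9.4e-05). Of 4 genes with the ortholog of the deubiquitinase USP16, 3 rose. The largest, VaccDscaff9-augustus-gene-74.32, had 5.06, 4.28 and 4.75 FPKM in green, 4.49, 4.37 and 4.47 FPKM in color break and 5.66, 5.11 and 4.82 FPKM in mature libraries and rose by 0.40 ± 0.09 (SE, edgeR adjusted p = 0.0037), at 0.12 and not past the threshold with library size alone. Over these 9 partner genes, 8 rose in mature against green fruit under TMM, against 3 rising and 1 falling with library size alone. Of 4 models that carry only a metallopeptidase term 2 rose in mature against green fruit; 1 model on scaffold 22 and 1 on scaffold 43 lie directly beside an RPN11 copy. Of the 2 tested models with only an ATPase term 1 rose and 1 fell. The one that fell, VaccDscaff39-augustus-gene-255.32, had 2.99, 3.39 and 2.82 FPKM in green, 1.85, 2.26 and 2.10 FPKM in color break and 1.94, 1.55 and 1.84 FPKM in mature libraries and fell, with a log2 change of -0.53 ± 0.14 (SE, edgeR adjusted p = 0.01).

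The term leaves out many proteasome genes. Another 84 genes carry a proteasome subunit ortholog without it, and 68 were tested. Under TMM, 29 rose in color break against green fruit, 10 rose and 1 fell in mature against color break, and 44 rose and 2 fell in mature against green. Of all tested genes 27.0%, 2.75% and 28.5% rose and 27.0%, 3.34% and 28.7% fell in these comparisons. Their median log2 changes were 0.33, 0.23 and 0.54 in that order of comparisons, beside 0.33, 0.21 and 0.53 for the members. Among them PSMB1, a structural beta subunit, summed to 68.3 to 69.9 FPKM at the green stage, 79.1 to 83.7 FPKM at color break and 102 to 106 FPKM at maturity. PSMA7, an alpha subunit, was lower in later fruit in FPKM, at 62.5 to 67.1 FPKM at the green stage, 50.1 to 59.4 FPKM at color break and 49.4 to 56.7 FPKM at maturity. Divided by the TMM factors its stages overlapped, with a ratio of 0.9996 in mature against green fruit.

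Upstream of the proteasome, genes of the ubiquitin pathway were counted by list in mature against green fruit, where 28.5% of all tested genes rose and 28.7% fell. Of 13 tested genes with a ubiquitin-activating (E1) annotation, some of which carry an autophagy ortholog, 9 rose. Of 133 ubiquitin-conjugating (E2) genes 40 rose, about the share of all genes, and 25 fell, a median log2 change of 0.03. Of 57 cullin and SCF core genes, the scaffolds of ubiquitin ligases, 28 rose and 4 fell, with a median of 0.28. Of 168 deubiquitinases 67 rose and 31 fell, with a median of 0.15. Of 43 shuttle and segregase genes, a list that leaves out the UFD1 members, 17 rose and 4 fell, with a median of 0.22. Of 26 genes for assembly chaperones and partners 9 rose and 3 fell, with a median of 0.25. These medians stand beside 0.53 for the proteasome members and -0.01 for all tested genes. The single gene matched as polyubiquitin or a ubiquitin fusion fell, with a log2 change of -0.35, and no gene description named NAC53 or NAC78, which regulate proteasome genes in Arabidopsis.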

How the data were processed

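Total RNA of fruit was sequenced on the Illumina NovaSeq platform, per the labels; that text names Populus under alkaline stress, although the organism is given as blueberry. The submitters' processing notes name fastp, HISAT2, StringTie and DESeq2, with versions, settings and build not given in the sources used here. Per the file headers, the deposited table gives FPKM and counts made by the authors for 93716 genes. The deposited counts are estimated counts: whole numbers that equal FPKM times model length times a constant per library, to within 1 count, for 99.3 to 99.6% of genes. They were used as deposited.

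Genes at 1 FPKM or more in 3 or more libraries entered edgeR 4.0.16 in R 4.3.3 (TMM, robust quasi-likelihood fits, stage as the only term, all 9 libraries), with Benjamini-Hochberg adjustment over 48073 genes. Calls used an adjusted p under 0.05, alone or with a 2-fold change. Alternatives used limma 3.58.1 and DESeq2 1.42.0. On simulated data of 48073 genes, 58% of 2-fold and 12% of 1.5-fold changes passed the adjusted p in color break against green fruit, and 0.0125% of unchanged genes did. Sums over genes were not tested. Overlap between libraries was read in FPKM.

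Members were taken from the GO column and placed by KEGG ortholog. Named are, for each subunit, the gene with the highest mean FPKM, and in each comparison up to 5 called members with the largest rise and fall, or those past the adjusted p alone where fewer than 3 were called; VaccDscaff40-augustus-gene-266.26 and VaccDscaff62-snap-gene-8.83 were added after their values were seen. Members and lists were chosen with earlier results of these data known. No reference sequence was used.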

Additional observations from a re-analysis of the deposited data

How the results depend on the processing

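The counts of members depend on scale and filter, and no cause was tested for these differences beyond the number of genes each alternative tests. Where no share of all genes is given for an alternative, its count is not read as a result about the members. With library size alone, color break against green fruit gave 28 rising and 20 falling members, 3 falling 2-fold, and mature against green gave 62 rising and 17 falling, 4 of each 2-fold. With limma on log2(FPKM + 1), color break against green gave 31 rising, 21 falling and 0 falling 2-fold, and mature against green 16 falling, 4 rising 2-fold and 0 falling 2-fold. With a pseudocount of 0.1, these were 31, 20 and 3, and 15, 4 and 4. Without a filter, which tests 185 members, 10 rose 2-fold and 4 fell in color break against green, and 21 rose 2-fold and 1 fell 2-fold in mature against green. With a mean FPKM of at least 5, which leaves 101 members, color break against green gave 29 rising, 1 of them 2-fold, 12 falling and 0 falling 2-fold; mature against green gave 59 rising, 1 rising 2-fold and 0 falling 2-fold; the F test gave 64. Summing copies by ortholog leaves 45 units: 26 rose and 3 fell in color break against green, 11 rose in mature against color break, 31 rose and 3 fell in mature against green with 1 falling 2-fold, 0 rose or fell 2-fold otherwise from green, and the F test gave 34. In mature against color break fruit DESeq2 gave 35 rising members and a fit on those 2 stages alone 13. With members defined by ortholog, 186 genes, 1 fell there.

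Leaving out 1 library at a time gave 7 to 19 rising and 0 to 1 falling members in mature against color break, 0 to 1 of each at 2-fold, and 3 to 8 falling and 0 to 2 falling 2-fold in mature against green. The ratio of the summed level was 1.27 in color break against green and 1.497 in mature against green fruit in TMM-scaled CPM, and 1.202 in mature against color break and 1.28 in mature against green fruit in TPM.

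With the replicate number as a block the counts were 72 rising and 8 falling, 17 rising, and 94 rising and 6 falling in the 3 comparisons, with 1 falling 2-fold in mature against green. Same-numbered libraries correlated at -0.030 to 0.223 and differently numbered ones at -0.174 to 0.117. Between color break and mature fruit the same-numbered pairs were all positive, at 0.043 to 0.223. The labels state no pairing, and these values do not settle whether the numbers pair libraries. For the named genes, 1988 recomputed changes kept direction and side of the threshold, 53 came to pass it, 138 ceased to pass it and 5 changed sign. Those 5 are in color break against green fruit: VaccDscaff17-augustus-gene-366.21 at -0.013 with library size alone, and VaccDscaff23-augustus-gene-46.38 at -0.058 with a mean FPKM of at least 5, -0.10 with library size alone, and -0.078 and -0.080 with limma at pseudocounts of 1 and 0.1. With the mean FPKM filter the members' median change still stood above that of all tested genes, by 0.119, 0.222 and 0.310 in the 3 comparisons, against 0.347, 0.215 and 0.545 as reported, 0.564, 0.194 and 0.761 without a filter and 0.255, 0.179 and 0.449 with limma on log2(FPKM + 1). Simulated 1.5-fold changes mostly missed the adjusted p, so a member that did not pass may still differ by that much.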

Other observations

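COP9 signalosome and eIF3, a regulator of ubiquitin ligases and a translation initiation factor, share the PCI and MPN folds of the lid. The lists matched for them overlap: the same gene has the highest mean FPKM in each, so their counts are not separate. Of all tested genes 27.0% rose and 27.0% fell in color break against green fruit. The shares were 2.75% and 3.34% in mature against color break, and 28.5% and 28.7% in mature against green. Of 38 tested COP9 signalosome genes 23 rose and 1 fell in color break against green fruit, 3 rose in mature against color break, and 24 rose and 1 fell in mature against green, with a median log2 change of 0.43 in the last. Of 53 tested eIF3 genes 33 rose and 3 fell, 3 rose, and 31 rose and 1 fell in the same comparisons, with a median of 0.50 in the last. The lid stood at 30 rising of 35 in that comparison. No difference between these groups and the lid was tested, and edgeR with TMM gave every count.

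For autophagy, the other route of bulk protein turnover, the counts were at or below the share of all genes in both comparisons with green fruit. Of 174 tested genes 37 rose and 31 fell in color break against green fruit, 11 rose and 1 fell in mature against color break, and 48 rose and 30 fell in mature against green. In mature against color break fruit the rising share was 6.32%, above the 2.75% of all tested genes, and the falling share was 0.575% against 3.34%. Their median log2 change in mature against green fruit was 0.04.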
